A study of Bos taurus with 12 samples.

Results

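The ion channel and neurotransmitter receptor genes comprised 51 autosomal cattle genes, of 2223 named autosomal genes that had a listed methylation locus within 10 kb. They were chosen by name alone: the full name had to contain "channel" or name a glutamate, gamma-aminobutyric acid (GABA), cholinergic, glycine or serotonin (hydroxytryptamine) receptor. Single CpG sites were listed near 48 of the genes (80 sites, of 3276 near named autosomal genes) and windows of 500 bp, called tiles below, near 6 of them (13 tiles, of 1256), with 3 genes in both tables. The rule on names takes in regulators and partners as well as pore-forming subunits. Serotonin receptor genes had listed sites only farther than 10 kb away, so none is among the 51 genes. Counts and values of a gene below are for loci within 10 kb unless stated otherwise.

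The study asked whether DNA methylation in bull sperm goes with the fertility of a bull's daughters. Enzymatic methylation sequencing, which converts unmethylated cytosines with enzymes in place of bisulfite, was applied to 6 sperm samples labelled low and 6 labelled high daughter fertility, all from males, with no treatment, age or breed used here. The data are the authors' own comparison of the groups, on the ARS-UCD1.2 build, and give each locus a difference in methylation, in percentage points, with its p and q. Methylation levels per sample and read depth were not analysed here, so no spread between samples stands beside any value, the purity of the sperm could not be checked from markers, and the sign is given as listed because the subtracted group is not stated. The labels do not say that the samples came from separate bulls, nor the headers whether the authors modelled sample-to-sample variation, so a small q is no measure of how alike the samples of a group were. Called loci are those with q below 0.05 whose difference is 10 points or more in either direction.

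Ion channels let ions cross membranes along their gradients and set the electrical excitability of cells. Ligand-gated members of the set (ionotropic glutamate, GABA type A, glycine and nicotinic receptors) open when a transmitter binds, whereas metabotropic glutamate and GABA type B receptors act through G proteins. Most are known from the nervous system, but sperm also depend on ion flux: the CatSper calcium channel drives the vigorous tail beat needed for fertilization, and potassium, proton and chloride currents change as sperm become fertile. Mature sperm are largely silent in transcription, and their methylation reflects the male germ line.

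Of the 80 sites near these genes, 2 were called, in GRIK1 and GABRA5, and both had negative differences. In the background 1.77% of sites were called negative and 1.5% positive. The 2 calls are 2.50% of the sites, against 3.27% of all sites near named autosomal genes, and 2 of 48 genes (4.17%), against 4.52% of all named genes with such sites. A q below 0.05 at any size was listed for 4 sites (5.0%, against 5.04%), an unadjusted p below 0.05 for 19 (23.8%, against 19.6%), and a difference of at least 10 points at any q for 6 (7.5%, against 7.6%). The shares of called loci lay close to the background, and nothing particular to channels and receptors is read from them.

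The 2 signs were nearly balanced near these genes. The authors' deposited table lists 38 of the sites as negative, 37 as positive and 5 as exactly 0. Of the sites other than 0, 50.7% were negative. The exact 95% binomial interval of 38.9 to 62.4% treats all sites, neighbours included, as independent. All sites come from the same samples and many share a gene, so the interval measures no spread between samples. Over all sites near named autosomal genes, these among them, 55.7% were negative, and the difference between the 2 shares was not tested. The median difference was 0.00 points, against -0.30, and the median absolute difference was 2.49 points, against 2.38. Most differences were small, with 66 of the 80 sites below 5 points in size.

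**Figure D1:**
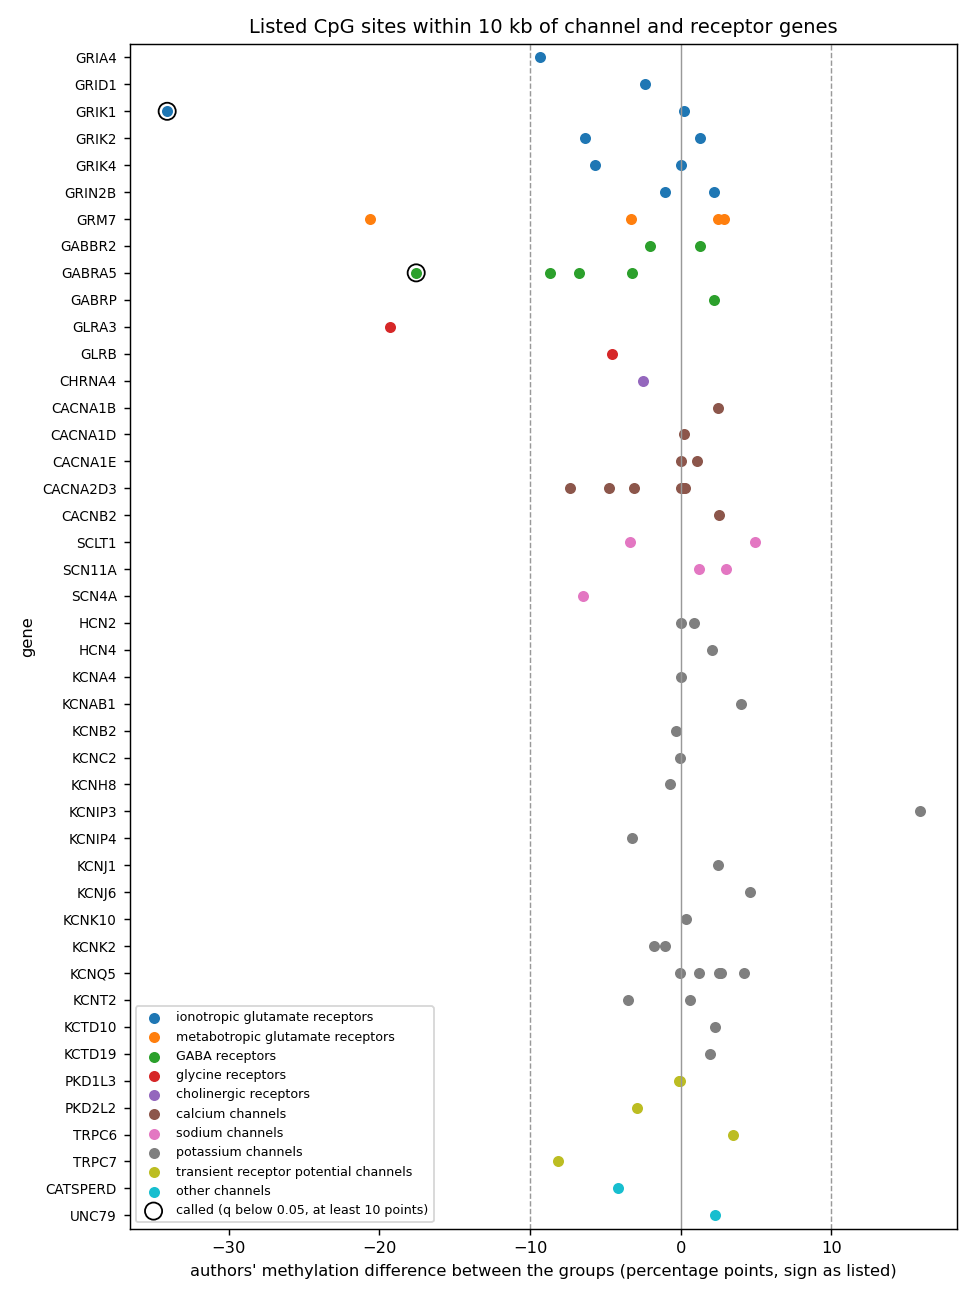
Methylation difference in percentage points (x axis, sign as listed) of 71 CpG sites near 44 channel and receptor genes (y axis), coloured by gene group. Dashed lines mark 10 points, and rings mark the 2 called sites at -34.1 points near GRIK1 and -17.6 points in GABRA5, while 58 of the 71 sites lie within 5 points of 0.

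The ionotropic glutamate receptors, the channels that carry most fast excitatory transmission, had 12 sites near 7 genes, 6 negative, 5 positive and 1 at 0. GRIK1 (ENSBTAG00000034854), which encodes a kainate receptor subunit, had the lowest difference of all 80 sites. In the authors' deposited table its site at position 6579099 of chromosome 1, 1304 bp downstream of the 3′ untranslated region, was listed at -34.1 points (p = 5.22e-13, q = 1.68e-10). The next listed site on the same strand, 408 bp farther from the gene, stood at 0.19 points (p = 0.914) in the authors' deposited table. No other site and no tile was listed within 20 kb of the called site, so the GRIK1 call rests on 1 CpG position. At the other end of the gene, a tile at positions 6112201 to 6112700 overlaps a coding segment and had a difference of 0.68 points by the authors' deposited table (q = 0.00028), of the opposite sign and far smaller.

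Other ionotropic glutamate receptor genes had no call. The kainate subunit genes GRIK2 and GRIK4 each had an intronic site with an unadjusted p below 0.05, at -6.38 points (q = 0.0689) and -5.68 points (q = 0.115), and a second intronic site at 1.25 and 0.00 points in the authors' deposited table. GRIA4, of the AMPA type, had 1 intronic site whose difference was -9.37 points (p = 0.206) by the authors' deposited table. By the authors' deposited table the delta type gene GRID1 (-2.38 points) and the NMDA type gene GRIN2B (-1.04 and 2.21 points) lay below 5 points in size.

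The metabotropic glutamate receptors, which tune synapses through G proteins, had 9 sites, all intronic, with none called. GRM7 (ENSBTAG00000013047, chromosome 22), a presynaptic receptor that dampens transmitter release, had a site at position 18818110 whose difference was -20.6 points by the authors' deposited table (p = 0.00324, q = 0.0534), past 10 points but just above the q threshold. A site on the same strand 5 bp away stood at 2.47 points and one 335 bp to the other side at -3.30 points in the authors' deposited table, and the fourth, in another intron, at 2.85 points. Among the GRM7 sites within 10 kb, a single site carried the large difference. Farther from its intron's edge, the gene had another site at -19.4 points (q = 0.0775), given under the other observations.

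The GABA receptors, the main inhibitory receptors of the brain, had 8 sites near 4 genes, 5 negative and 3 positive. GABRA5 (ENSBTAG00000003392, chromosome 21), which encodes the alpha5 subunit of the type A receptor, was the only one of the 51 genes in which more than 1 site had a q below 0.05. Its 4 sites span 24 bp of 1 intron, on the minus strand. The authors' deposited table gives -17.6 points at position 4322686 (p = 0.000169, q = 0.00345), -6.74 at 4322694 (q = 0.0316), -8.70 at 4322700 (q = 0.0109) and -3.23 at 4322710 (p = 0.0395, q = 0.153). All 4 were negative and 3 had a q below 0.05, and the first alone passed 10 points. One more site of the same intron, at position 4304651 on the plus strand, lay 20522 bp from the intron's edge and so outside the distance rule. The authors' deposited table puts it at -8.64 points (q = 0.0235). The 4 sites within 24 bp can be read on the same DNA fragments, so those 4 are not separate observations.

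GABRP (2.22 points) and GABBR2, a type B subunit (1.25 and -2.02 points), had no q below 0.05 in the authors' deposited table. GABRB1, a type A beta subunit gene, had only tiles within 10 kb, given below.

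The remaining transmitter receptor genes had 1 site each. Glycine receptors are inhibitory chloride channels of the spinal cord and brainstem. GLRA3 (ENSBTAG00000019732), an alpha subunit gene, had a site at position 7130161 of chromosome 8 that the authors class as promoter, 4911 bp from the closest annotated intron. Its difference was -19.3 points by the authors' deposited table (p = 0.00531, q = 0.0571). It passed 10 points and missed the q threshold, and no other site was listed within 20 kb of it. GLRB, the beta subunit gene, was listed at -4.57 points (q = 0.255) and CHRNA4, a nicotinic acetylcholine receptor subunit gene, at -2.53 points by the authors' deposited table (q = 0.315).

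**Figure D2:**
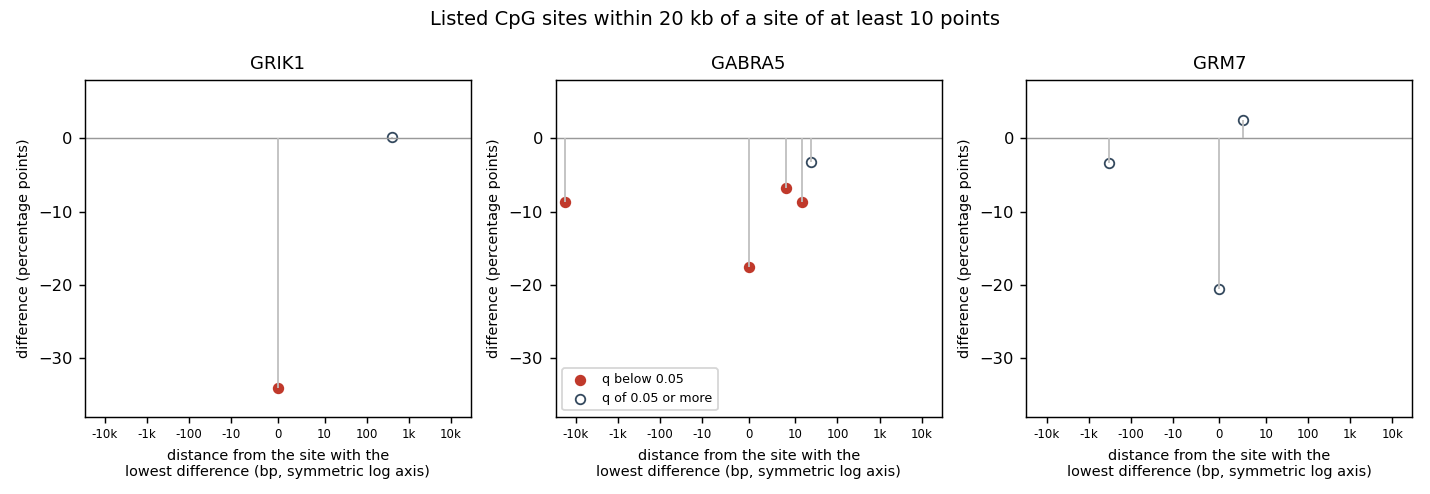
Difference in percentage points (y axis) of every listed CpG site within 20 kb of the lowest site of GRIK1, GABRA5 and GRM7, by distance in bp on a symmetric log axis. In GABRA5 all 5 sites were negative and 4 had a q below 0.05 (filled), whereas the neighbours of the lowest site near GRIK1 and GRM7 stood between -3.30 and 2.47 points.

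Differences were also compared between neighbouring sites. Among sites near the same gene, 11 pairs of neighbours lay at most 73 bp apart, in 8 genes, and both sites of each pair were on the same strand. The sign was the same in 7 pairs, opposite in 2, and 1 site stood at 0 in the other 2. The 7 include the successive pairs of the GABRA5 sites within 24 bp, which share sites. No such count over all named genes stands beside these, so nothing is read from the share of equal signs. The median gap between the paired differences was 1.67 points, and the widest were the 23.1 points between the GRM7 sites 5 bp apart and the 10.8 points between the first 2 GABRA5 sites. Small gaps include pairs with both values near 0, as in PKD1L3 (-0.06 and -0.11 points). Read depth is unknown, so how much of a gap came from the sampling of reads was not tested. Of the 18 genes with at least 2 sites, 10 had both signs, 3 were negative and 2 positive throughout, and 3 had a site at 0 beside sites of 1 sign.

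Voltage-gated calcium channels, which couple membrane voltage to calcium entry, had 11 sites near 5 genes, 3 negative, 6 positive and 2 at 0, with no q below 0.05. CACNA2D3, an auxiliary alpha2delta subunit gene on chromosome 22, had 6 sites, the most of any gene. By the authors' deposited table these were -7.37 points (p = 0.0228, q = 0.132), -4.76, -3.09, 0.00, 0.17 and 0.25 points. The negative values came from 2 adjacent sites 18 bp apart and 1 site in another intron. The pore-forming subunit genes CACNA1B (2.48 points), CACNA1D (0.24 points) and CACNA1E (1.09 and 0.00 points) and the beta subunit gene CACNB2 (2.55 points) were all at or above 0 in the authors' deposited table.

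Sodium channel names gave 5 sites near 3 genes. SCN4A, the sodium channel of skeletal muscle, had a promoter site 3043 bp away from its 5′ untranslated region (-6.51 points, q = 0.313), and SCN11A, a channel of pain-sensing neurons, had intronic sites at 1.23 and 3.02 points in the authors' deposited table. SCLT1, a linker protein that also serves in building cilia, had sites 372 bp apart at 4.95 points (p = 0.00859, q = 0.0991) and -3.36 points in the authors' deposited table. These 2 signs were opposite within 1 intron.

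Potassium channel names formed the largest group, with 24 sites near 17 genes, 8 negative, 14 positive and 2 at 0, and no q below 0.05. Only KCNIP3, a calcium-binding partner of potassium channels, passed 10 points. Its intronic site at position 2117084 of chromosome 11 had the highest of the 80 differences, 15.9 points by the authors' deposited table (p = 0.0165, q = 0.138). The other 23 sites were below 5 points in size. KCNQ5, of the family that carries the M current, had 5 sites between -0.05 and 4.17 points, the highest of them a promoter site 783 bp from the coding sequence. An unadjusted p below 0.05 was listed for KCNJ6 (4.60 points, q = 0.0913), an inward rectifier opened by G proteins, KCNAB1 (4.0 points, q = 0.154) and KCNIP4 (-3.23 points, q = 0.179) in the authors' deposited table. Under the 10 kb rule, both sites of KCNT2 (-3.51 and 0.62 points) and of KCNK2 (-1.79 and -1.02 points) were within 4 points of 0 in the authors' deposited table. Farther from its intron's edge, KCNT2 had a called site at -23.2 points (q = 0.0112), given under the other observations. Single sites ranged from -0.69 points in KCNH8 to 2.50 points near KCNJ1 among KCNA4, KCNB2, KCNC2, KCNH8, KCNJ1, KCNK10, KCTD10, KCTD19 and HCN4. KCTD10 and KCTD19 share a domain with potassium channels without being channels.

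The transient receptor potential names gave 6 sites near 5 genes, 5 of them negative, with no q below 0.05. TRPC7, a calcium-permeable cation channel gene, was lowest at -8.17 points (p = 0.0471, q = 0.179), and its relative TRPC6 was listed with 3.49 points by the authors' deposited table. A list of channel names associated with sperm matched 3 of the genes. CATSPERD, an auxiliary subunit of the CatSper channel, had 1 intronic site at position 18555875 of chromosome 7 with -4.17 points (p = 0.0734, q = 0.229) in the authors' deposited table. The polycystin family genes PKD2L2 (-2.91 points) and PKD1L3 (-0.06 and -0.11 points) completed that list, so all 4 of its sites were negative, none had an unadjusted p below 0.05, and the sizes were small. UNC79, a subunit of the sodium leak channel complex, stood at 2.29 points by the authors' deposited table (q = 0.466).

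**Figure D3:**
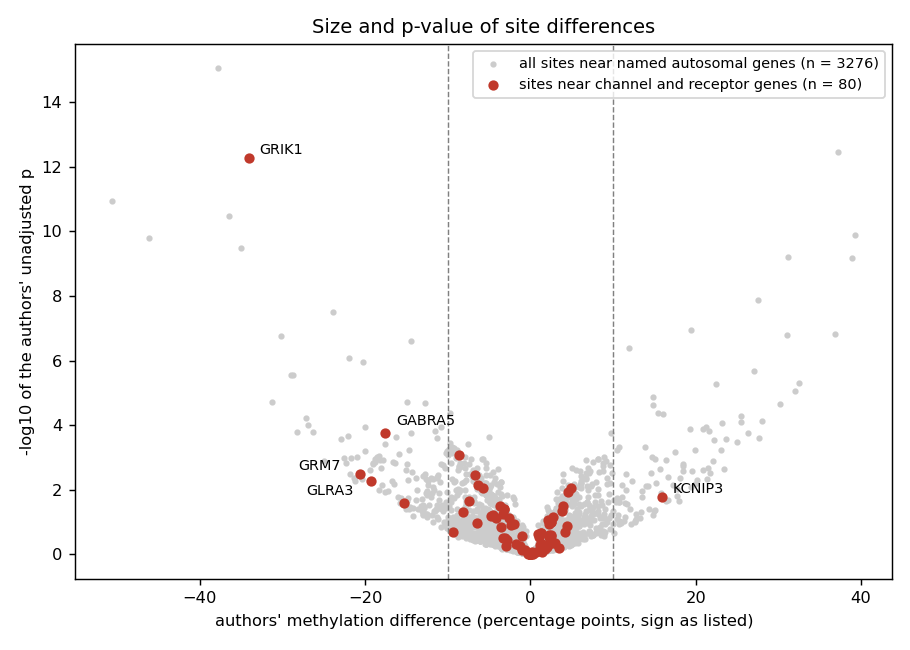
Difference in percentage points (x axis) against -log10 of the authors' unadjusted p (y axis) for the 80 sites near channel and receptor genes (red) and all 3276 sites near named autosomal genes (grey). The 5 named sites lie past 10 points (dashed lines), 4 of them negative, and GRIK1 at -34.1 points has by far the smallest p of the 80.

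Whether a site fell below q = 0.05 depended on its chromosome as well as on its p. On 21 of the 24 chromosomes of the site table, every listed q lay within 1% of a constant times the Benjamini-Hochberg value computed from the p-values of that chromosome alone, and the constants of all 24 ran from 0.755 to 0.877. On chromosomes 7, 15 and 16 this held for 91.9, 89.7 and 85.9% of the sites. By the authors' deposited values the lowest GRM7 site on chromosome 22 had q = 0.0534 at p = 0.00324. By contrast, the GABRA5 site at position 4322694 of chromosome 21 had q = 0.0316 at a slightly larger p (0.00337) in the authors' deposited table. When the p-values were adjusted over the whole site table, the lowest GRM7 site had an adjusted p of 0.0482 (Benjamini-Hochberg) and joined the calls, which then numbered 3. GLRA3 had 0.0646 under that adjustment and remained outside.

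**Figure D4:**
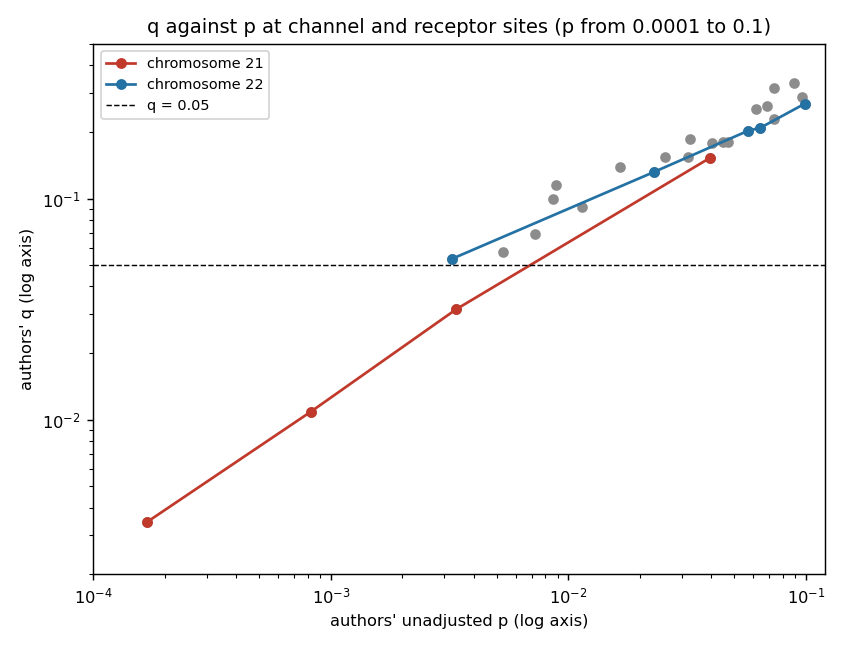
The authors' q (y axis) against their unadjusted p (x axis), both on log axes, for channel and receptor sites with p between 0.0001 and 0.1, with chromosomes 21 and 22 joined by lines. At nearly the same p, near 0.003, the chromosome 21 point lies below the dashed line at q = 0.05 and the chromosome 22 point above it.

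The tiles near channel and receptor genes showed differences of less than 1 point throughout. None of the 13 tiles was called, against 1.27% of the 1256 tiles near named autosomal genes, and 4 had both a q and an unadjusted p below 0.05. That is 30.8% of the tiles, where 61.1% of all tiles near named autosomal genes had a q and 53.6% an unadjusted p below 0.05. The median absolute difference was 0.17 points, against 0.65. Tiles near 1 gene overlap and share CpG sites, so the 13 tiles stand for 6 genes. The authors' tile q lay below the Benjamini-Hochberg values computed per chromosome, with a median ratio per chromosome from 0.00488 to 0.611. A tile's q can therefore be smaller than its own unadjusted p.

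The highest tile lay in CLCC1, a chloride channel gene of the endoplasmic reticulum, over the 5′ untranslated region at positions 34397601 to 34398100 of chromosome 3, with 0.73 points by the authors' deposited table (q = 0.000263). The 4 overlapping tiles of GABRB1 on chromosome 6, between positions 65612101 and 65612900, were listed at 0.40 (p = 0.0209, q = 0.00378), 0.20, 0.16 and 0.20 points in the authors' deposited table. HCN2, a pacemaker channel gene, had tiles at -0.06 and -0.37 points (the second with p = 0.0364 and q = 0.0287) in the authors' deposited table. The only 2 of the 80 sites that fell inside a tile were those of HCN2, at 0.00 and 0.90 points, and both lay in both tiles. The promoter tiles of CACNA2D1 (-0.15 and 0.00 points) and PKD2L2 (-0.03, -0.17 and -0.11 points) were listed in the authors' deposited table with q from 0.187 upwards.

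**Figure D5:**
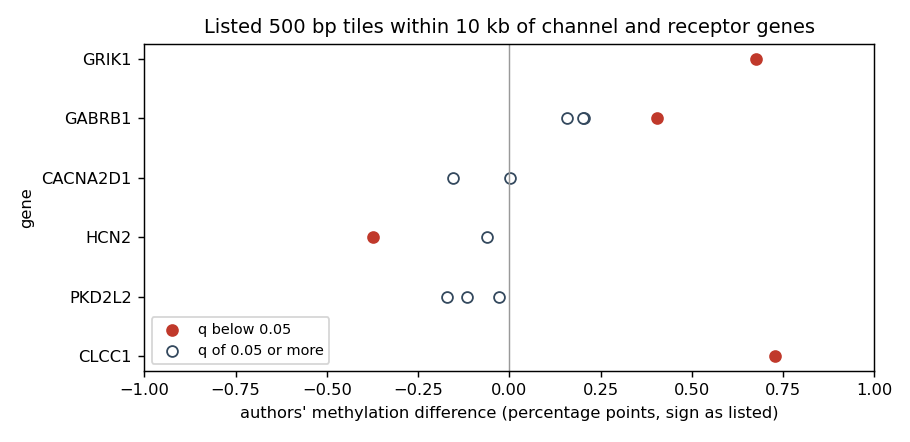
Difference in percentage points (x axis) of the 13 tiles near 6 channel and receptor genes (y axis), filled where q is below 0.05. All lie between -0.37 points (HCN2) and 0.73 points (CLCC1).

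By feature, 69 of the 80 sites lay inside their annotated gene feature, 8 in the authors' downstream class and 3 in their promoter class. The closest feature of 65 sites (81.3%) was an intron. For the downstream sites of KCNJ6 and KCNA4 it was a 5′ untranslated region, so downstream need not mean past the end of the gene. Among all sites near named autosomal genes 68.5% were inside a feature and 63.6% had an intron as the closest feature. The authors measured distance to the nearer edge of the feature even for loci inside it, so the 10 kb rule leaves out loci deep in long introns. Just inside the limit was a site of KCNK2, at 9139 bp (-1.79 points), and the first outside was in the calcium channel gene alpha1 C, at 10751 bp (9.28 points, q = 0.359) in the authors' deposited table.

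A list of other excitability genes (calcium release channels, purinergic, dopamine, adrenergic and histamine receptors, synaptic scaffolds, gap junctions and vesicle proteins) held 28 genes. Of its 33 sites near 24 genes 2 were called (6.06%, against the same 3.27%), 1 in each direction, and 15 sites were negative, 15 positive and 3 at 0. Gap junction protein gamma 2, a connexin, had a site 1346 bp downstream at -20.3 points (q = 0.000148, chromosome 7, position 2971396), and extended synaptotagmin 3, a protein that tethers the endoplasmic reticulum to the plasma membrane, stood at 31.1 points by the authors' deposited table (q = 1.11e-07). The 10 tiles of this list stand for 4 genes, as tiles near 1 gene overlap. None of these tiles was called, against 1.27% of all tiles near named autosomal genes. An unadjusted p below 0.05 was listed for 8 of the tiles (80.0%, against 53.6%). The lowest of them, in an intron of histamine receptor H2, was listed at -9.61 points (q = 9.06e-42), just under the threshold of 10 points, in the authors' deposited table.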

How the data were processed

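Enzymatic methylation sequencing of 12 sperm samples was compared by the authors as 6 low against 6 high daughter fertility. Trimmomatic, Bismark, methylKit and the build ARS-UCD1.2 are named in the submitters' processing notes, with no versions, roles or settings. The p-values and q-values were deposited by the authors, and the methylation difference, in percentage points, was deposited with the group subtracted not stated. Coverage and levels per sample were not analysed here, so depth is unknown and no model was fitted. Chromosomes 2, 3, 4, 12, 23 and 27 of the site table and 12, 23 and 27 of the tile table were not analysed here.

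Loci were parsed with Python 3.11.15 and pandas 2.3.3, and the code was tested on simulated data. A locus belonged to a gene when the authors' annotation named it as the closest feature within 10 kb, on an autosome. Gene names come from the files. Symbols are the standard ones for those names, and 51 of 51 are listed on the same chromosome in RefSeq's ARS-UCD2.0 table, used for nothing else. The background is all loci within 10 kb of a named autosomal gene. Named genes were those with a call or a q below 0.05, the genes with the most sites in each group (every gene where tied), the listed sperm channels and the genes in both tables. Other genes were named after their values were seen, and some members are counted but not reported by name here. Members, lists and thresholds were chosen with earlier results of these data known. Alternatives changed the q, difference and distance thresholds, the adjustment, the loci per gene and the name rule.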

Additional observations from a re-analysis of the deposited data

How the results depend on the processing

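The tables hold no value per sample, so no sample could be left out and no depth limit could be given. No paired analysis was possible because the sample numbers are not shared between the groups, and only the authors' test of the groups, without values per sample, was used. With a minimum of 5 points, 4 sites were called, all 4 negative and in the same 2 genes, since 2 further GABRA5 sites passed. With a minimum of 20 points, 1 site in 1 gene, GRIK1, was called, and it was negative. Counting only loci inside the annotated feature left 1 called site in 1 gene, GABRA5, also negative, because the GRIK1 site lies downstream. Benjamini-Hochberg adjustment over the whole table gave 3 called sites in 3 genes, with GRM7 added. The counts of called sites, called genes and negative calls stayed at 2 with q below 0.01, distances up to 50 kb, 1 locus per gene, without regulators and partners, and with adjustment within chromosomes, the last chosen after seeing the data. The share of negative sites ran from 50.7 to 55.3% under these settings, and no tile was called under any of them.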

Other observations

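Genes with channel or receptor names also had loci farther than 10 kb from the annotated feature's edge. In the site table these were 102 sites of 51 genes on autosomes, 39 of them inside a long intron, and 23 of the genes also had loci within 10 kb. Of the 102 sites 2 were called (1.96%), against 3.98% of the 2237 sites farther than 10 kb from the named autosomal gene they were assigned to. In the authors' deposited table KCNT2, a sodium-activated potassium channel gene, had an intronic site at position 6450235 of chromosome 16, 61460 bp from the intron's edge, at -23.2 points (p = 0.000309, q = 0.0112). A site 33 bp away on the same strand was listed at -12.7 points (q = 0.246) and one 46 bp away at -0.76 points. The other call was 15.2 points (q = 0.0412) at position 63042530 of chromosome 16, outside any gene feature and 101127 bp from CACNA1E, in the authors' deposited table.

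GRM7 had a further intronic site past 10 points, at position 19410215 of chromosome 22 and 135443 bp from the intron's edge, with -19.4 points (p = 0.00616, q = 0.0775) in the authors' deposited table. The largest negative differences assigned to GRM7 came from different introns, and neither reached q below 0.05. The AMPA receptor gene GRIA1 (glutamate ionotropic receptor AMPA type subunit 1) was the closest named gene of sites at -11.8 and -11.7 points, 65425 and 310918 bp away, with q of 0.0716 and 0.0543 in the authors' deposited table. These loci were singled out after their values were seen.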
